A study of Mus musculus with 6 samples.

Results

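The Reg genes encode small secreted proteins with a single C-type lectin domain, and 7 of them, Reg1, Reg2, Reg3a, Reg3b, Reg3d, Reg3g and Reg4, were followed here in mouse bladder among the 18193 genes with a probe set on the array. They were taken by the gene symbol of the platform annotation, which gave 8 probe sets, 1 for each gene and a second one for Reg3b. The family was chosen by the difference of some members between the genotypes of this study, so its levels in the genotypes are given as a description and without a test. The study profiled bladders of mouse embryos at embryonic day 18.5 on 6 expression arrays, with 3 Get1 -/- (null) animals set against 3 Get1 +/- (heterozygous) ones. Get1 is the older name of Grhl3, which encodes a grainyhead-like factor that controls transcription in surface epithelia, and the series description gives bladder defects of the null mice as the reason for the study. All 6 animals thus carried at least 1 defective Get1 allele, and bladders of wild-type mice were not analysed here. The sources used here do not give the strain, how the allele was made or whether bladders were pooled, so p-values measure only the spread between these samples, which may be technical.

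Reg proteins are best known from the gut and the pancreas. Reg3b and Reg3g are released into the gut lumen, where Reg3g binds the peptidoglycan of Gram-positive bacteria and kills them, and Reg3b acts mainly on Gram-negative ones. Their transcription in gut epithelium is driven by bacterial signals and by interleukin-22 acting through STAT3. Reg1 and Reg2 are products of pancreatic acinar cells and of regenerating islets, Reg1 is also made in the gut, and Reg4 is found in enteroendocrine and other secretory cells of the intestine.

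In the mouse gene table of assembly GRCm38.p6, 6 of the 7 genes are direct neighbours on chromosome 6, in the order Reg3b, Reg3d, Reg3a, Reg2, Reg1 and Reg3g, with 0 other protein-coding genes between them. Reg4 lies apart on chromosome 3. The promoter windows of 4 genes of the cluster are shown because 3 of these genes (Reg3g, Reg3b and Reg1) had high signals in null bladders and the fourth, Reg3a, did not. All 7 genes had an entry in the RefSeq promoter table. Each window is from RefSeq, build GRCm38.p6, and runs 5′ to 3′ on the strand of the gene from 250 bases before its start to 50 bases after it. The windows are chr6:78468825-78469124 on the minus strand for Reg3g, and chr6:78370635-78370934, chr6:78425733-78426032 and chr6:78380459-78380758 on the plus strand for Reg3b, Reg1 and Reg3a. Capitals mark the longest run of letters that a window shares with the Reg3g window, and in Reg3g itself the run shared with Reg3b.
Reg3g: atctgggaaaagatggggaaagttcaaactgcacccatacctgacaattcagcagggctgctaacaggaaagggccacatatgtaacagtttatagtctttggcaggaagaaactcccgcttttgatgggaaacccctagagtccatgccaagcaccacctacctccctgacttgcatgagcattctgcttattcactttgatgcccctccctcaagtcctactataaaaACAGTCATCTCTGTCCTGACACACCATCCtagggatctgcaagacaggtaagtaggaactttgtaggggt
Reg3b: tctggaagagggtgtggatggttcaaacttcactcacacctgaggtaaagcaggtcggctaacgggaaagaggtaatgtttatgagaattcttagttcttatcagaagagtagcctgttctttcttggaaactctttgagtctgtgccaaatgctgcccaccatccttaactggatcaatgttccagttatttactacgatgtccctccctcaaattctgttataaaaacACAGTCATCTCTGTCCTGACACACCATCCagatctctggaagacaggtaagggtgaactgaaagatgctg
Reg1: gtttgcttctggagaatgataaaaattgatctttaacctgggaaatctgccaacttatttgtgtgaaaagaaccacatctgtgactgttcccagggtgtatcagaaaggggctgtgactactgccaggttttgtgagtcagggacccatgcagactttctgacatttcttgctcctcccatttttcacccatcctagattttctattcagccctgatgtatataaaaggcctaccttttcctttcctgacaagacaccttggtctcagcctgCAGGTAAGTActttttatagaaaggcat
Reg3a: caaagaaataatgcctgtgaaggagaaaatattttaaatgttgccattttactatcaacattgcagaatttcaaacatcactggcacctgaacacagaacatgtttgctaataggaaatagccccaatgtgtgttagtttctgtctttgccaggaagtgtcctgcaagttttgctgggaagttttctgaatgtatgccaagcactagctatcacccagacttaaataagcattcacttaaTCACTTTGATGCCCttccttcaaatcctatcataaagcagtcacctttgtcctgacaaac

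The Reg3b and Reg3g windows were the most alike of the 21 pairs. They were identical at 68.1% of the 304 columns of a global alignment and shared an unbroken run of 29 bases, which in both genes lies from base -20 to base 9, where 1 is the first transcribed base and there is no base 0. The 14 other pairs within the cluster were identical at 46.6% to 55.8% of columns, and the 6 pairs with Reg4 at 44.3% to 48.1%. The longest run shared by any pair other than Reg3b and Reg3g was 14 bases, between Reg3a and Reg3g. Reg1 and Reg3g, which both had high signals in null bladders, were identical at 51.7% of columns, and their longest shared run had 10 bases. Reg3a and Reg3g, of which only Reg3g had high signals, were identical at 52.4%.

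The 7 windows were also searched on both strands for 6 short motifs of factors known to act in gut epithelium or related to Grhl3. A STAT3-type motif, TTCNNNGAA, which reads the same on both strands, was present in the windows of Reg3b (TTCTTGGAA, bases -129 to -121) and Reg3d (TTCCCAGAA, bases -238 to -230), against 8.3% of 32851 promoter windows. A CDX-type motif, TTTATG, was present in Reg3b and Reg3a (11.9% of windows), and a GATA-type motif, AGATAA, in Reg4 (11.2%). A grainyhead-type motif, AACCNGTT, was present in Reg2 alone of the 7 (AACCTGTT, bases -41 to -34, 2.09% of windows). An HNF4-type motif, CAAAGTCC (1.42%), and the palindromic HNF1-type motif (0.00913%) were found in 0 of the 7. No 2 of these motifs overlapped in a Reg window. The windows of Reg1 and Reg3g held none of the 6 motifs in the exact forms searched. Related forms of these motifs were not searched, so sites for the same factors may be present.

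As a check of the labels, the Grhl3 probe set had signals of 21.5 to 119.7 in the null group and 125.6 to 143.3 on the heterozygous arrays (log2 difference -0.95, limma adjusted p = 0.655). Whether it lies in the part of the gene that the null allele lacks is unknown, so it may check nothing. Of 13 urothelial markers, 0 were below the dim level on all 6 arrays, and their summed signal was 43218 to 51971 on null and 41760 to 58313 on heterozygous arrays. Most of that sum is keratin signal, with Krt8 at 8803 to 15261 over the 6 arrays, so it says little of the uroplakins. The log2 differences were -2.36, -0.55, -3.03, -0.49 and -0.68 for Upk1a, Upk1b, Upk2, Upk3a and Upk3b. For Krt5, Krt7, Krt8, Krt18 and Krt19 they were 0.03, 0.36, 0.16, -0.50 and 1.15. Whether the urothelial content differed was not tested. The dim level is the signal of 39.7 under which the faintest 30% of genes lay by their mean. Levels are log2(signal + 16), a scale whose lowest possible value is 4 and which understates the change of faint genes.

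Reg3b, the gut lectin active against Gram-negative bacteria, was high in all null bladders and below the dim level in all heterozygous ones. Its first probe set had signals of 7008, 8415 and 9346 on null arrays 1 to 3 and of 15.9, 38.8 and 23.7 on heterozygous arrays 4 to 6. All 3 null values were far above the heterozygous ones, and 0 of the 3 heterozygous values reached the dim level. Null bladders had a log2 level of 13.004 ± 0.21 and heterozygous ones 5.36 ± 0.39 (SD, n = 3 each), a difference of 7.64, or 200.02-fold on the scale with the offset.

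The name of that probe set ends in s_at, the suffix for probes able to match more than 1 transcript, so the second Reg3b probe set, which has no such suffix, was read beside it. It had signals of 10176, 11898 and 11888 on null arrays and of 7.22, 4.08 and 2.64 on the heterozygous arrays. Its levels were 13.46 ± 0.13 and 4.36 ± 0.16 (SD, n = 3 each), a log2 difference of 9.10. Both probe sets thus had the groups apart, by 7.003 and 8.78 between the lowest null and the highest heterozygous array on the log2 scale.

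Reg1, known from pancreatic acinar cells and gut, showed the same contrast. Its signals were 1471, 3424 and 3565 in the null group and 1.18, 2.42 and 2.51 on the heterozygous arrays. The null values were all high, null 1 being the lowest, and the heterozygous values lay next to the lowest level the scale allows. Null bladders averaged 11.36 ± 0.72 on the log2 scale and heterozygous bladders 4.17 ± 0.06 (SD, n = 3 each), a difference of 7.19.

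Reg3g, the gut lectin that kills Gram-positive bacteria, had signals of 1001, 1549 and 3823 on the null arrays. On the heterozygous arrays they were 30.2, 26.5 and 30.4. The groups were apart, and the null arrays were more uneven than for Reg3b: their log2 levels spanned 1.92 for Reg3g and 0.41 for the first Reg3b probe set. Null bladders averaged 10.84 ± 0.98 on the log2 scale and heterozygous bladders 5.49 ± 0.07 (SD, n = 3 each), a difference of 5.34.

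Reg4, a product of intestinal secretory cells, was fainter and its groups overlapped. Its signals were 59.0, 259.4 and 202.3 in the null group and 66.6, 14.9 and 12.6 on the heterozygous arrays. Null 2 and null 3 were above all heterozygous arrays, while null 1 was below heterozygous 4. Null bladders averaged 7.37 ± 1.00 on the log2 scale and heterozygous bladders 5.38 ± 0.85 (SD, n = 3 each), a difference of 1.98. Without null 1 the difference was 2.55, and without null 2 it was 1.61.

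**Figure D1:**
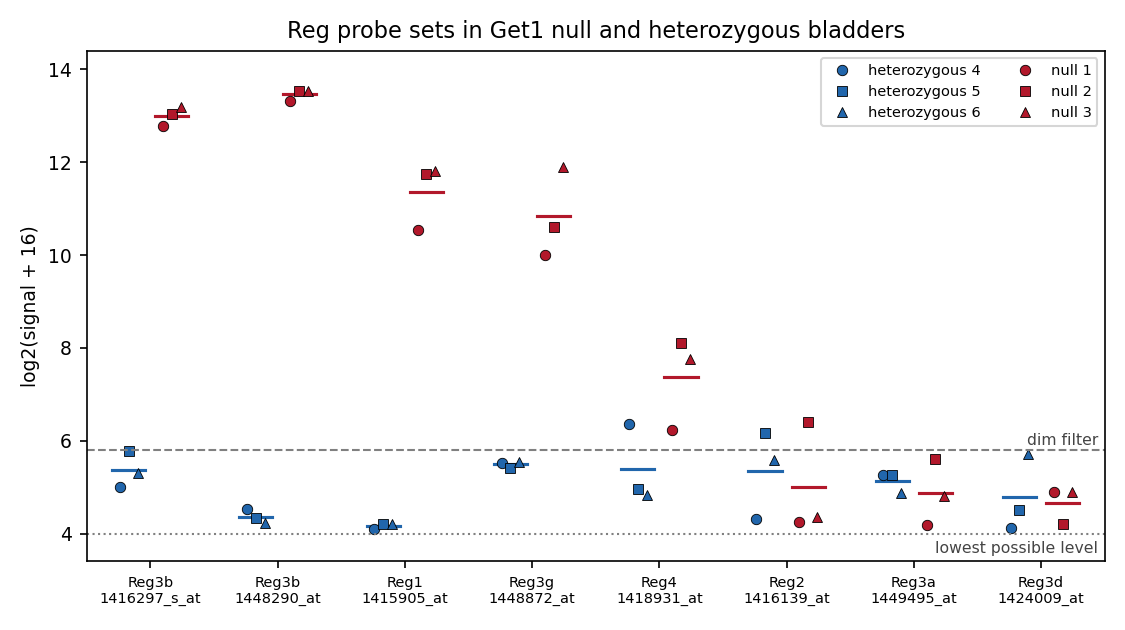
Levels of the 8 Reg probe sets as log2(signal + 16); each point is 1 array (red, null 1 to 3; blue, heterozygous 4 to 6), short bars are group means, the dashed line is the dim level and the dotted line the lowest possible level of 4. The null and heterozygous points are apart for both Reg3b probe sets, Reg1 and Reg3g, overlap for Reg4, and mix near the lowest level for Reg2, Reg3a and Reg3d.

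The other 3 genes, Reg2, Reg3a and Reg3d, gave little or no signal in either genotype. Reg2, a pancreatic member, had signals of 2.91, 69.0 and 4.34 on null arrays and of 3.81, 56.2 and 32.1 on the heterozygous arrays. Reg3a had signals of 2.12, 33.0 and 12.0 on null arrays and of 22.6, 22.1 and 13.1 on the heterozygous arrays. For Reg3d, a member known from pancreas, they were 13.8, 2.42 and 13.6 in the null group and 1.498, 6.76 and 36.5 on the heterozygous arrays. The groups overlapped for all 3 genes, and 2 of their 18 values, both of Reg2, exceeded the dim level. The log2 differences were -0.36 for Reg2, -0.26 for Reg3a and -0.12 for Reg3d. Each of these changed sign when 1 array was left out, with ranges of -1.06 to 0.05, -0.64 to 0.08 and -0.45 to 0.34, so no direction can be given. Values this close to the lowest level do not show whether these transcripts were present.

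Over the family, 4 of 7 genes had a null mean more than 2-fold above the heterozygous mean, against 2.09% of all 18193 genes (1.82% of those kept by the dim filter), and the groups were apart with null higher for 3 of 7, against 5.71% (6.07% of those kept). The dim filter kept 4 of the 7 (Reg1, Reg3b, Reg3g and Reg4) and left out Reg2, Reg3a and Reg3d. Reg1, Reg3b and Reg3g passed it only through their null arrays, so a gene like these had to differ to be kept. Reg4 had a heterozygous mean of 5.38, under the filter's cut of 5.80 on the log2 scale, so it too was kept through its null arrays. The limma fit over the 12735 genes kept called 0.448% of them higher in null animals and 0.51% in either direction, at a threshold of 0.05 on the adjusted p. Of the Reg genes 3 are among the former, a count that the choice of the family from this same contrast fixed, and nothing is read from it.

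Along the chromosome 6 cluster, Reg3b stands at one end and Reg1 and Reg3g at the other, and the 3 genes between them, Reg3d, Reg3a and Reg2, were those with little or no signal. The genes beyond the cluster were not part of the choice of the family and were tested. Of the 3 protein-coding genes on each side, 5 of the 6 had a named probe set and 4 were above the dim filter: Ctnna2 and Lrrtm1 on the Reg3b side, and Lrrtm4 and Gcfc2 on the Reg3g side. Their log2 differences were -0.77 and -1.09, and -0.01 and 0.13, and 0 of the 4 passed (limma, lowest adjusted p = 0.738, 0 at an unadjusted p under 0.05). Ctnna2, Lrrtm1 and Lrrtm4 are known from neurons.

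**Figure D2:**
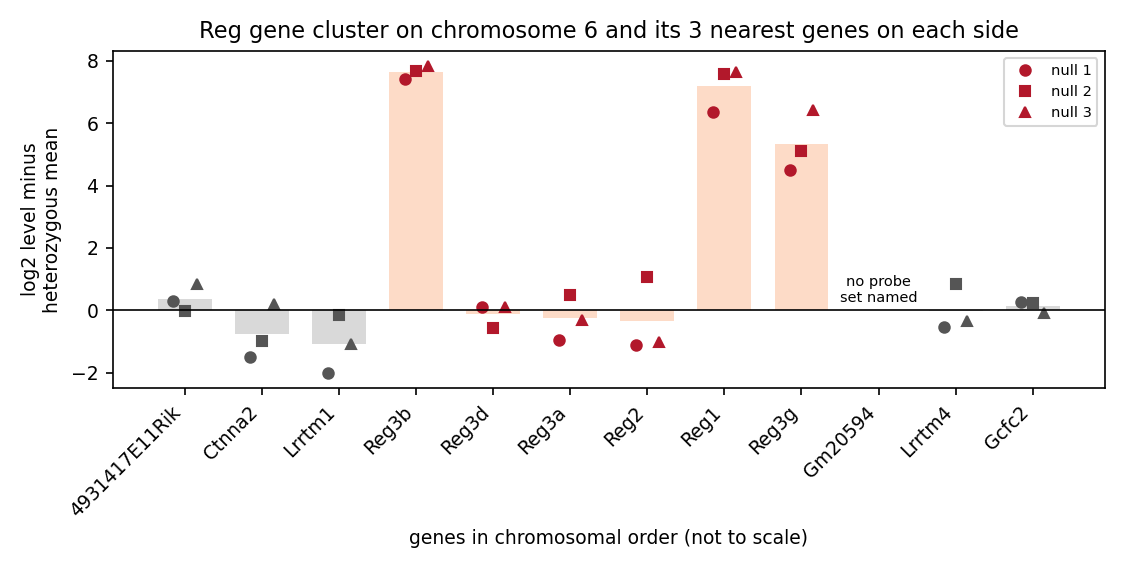
Log2 level of each null array minus the heterozygous mean for the 6 Reg genes of chromosome 6 and the 3 nearest protein-coding genes on each side, in chromosomal order and not to scale; bars are means of the 3 null arrays and points are single null arrays. Reg3b, Reg1 and Reg3g stand at 5.34 or more, while the 3 Reg genes between them and the 5 flanking genes with a probe set have means between -1.09 and 0.37.

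The null bladders differed among themselves in the same order for several members. Null 1 had the lowest null value in all 5 probe sets whose null mean was over 2-fold above the heterozygous mean. Above the heterozygous mean, null 1, null 2 and null 3 stood at 6.37, 7.58 and 7.63 for Reg1 and at 4.499, 5.12 and 6.41 for Reg3g on the log2 scale. For Reg3b the 3 arrays lay closer together, at 7.42, 7.68 and 7.83. The highest null array was null 3 for 3 of the 5 probe sets and null 2 for the others. Null 1 also differs from the other 5 arrays in a further number in its title, 1 in place of 2, whose meaning is not given, and it had the lowest median signal of the 6 (58.2 against 64.1 to 72.4). Without null 1 the differences were 7.61 for Reg1, 7.76 for Reg3b and 5.77 for Reg3g.

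Genes outside the family with the most similar profiles were sought by the root mean square distance over the 6 arrays between log2 levels taken relative to each gene's own heterozygous mean. For Reg1 these were Tff3 (distance 0.37), Lypd8 (0.39) and Dmbt1 (0.39), and for Reg3b the same 3 genes in the order Lypd8 (0.41), Tff3 (0.53) and Dmbt1 (0.68). Tff3 encodes a trefoil peptide of goblet cells, Lypd8 a surface protein of colon epithelium that keeps flagellated bacteria away, and Dmbt1 a secreted scavenger receptor of mucosal surfaces. Reg3g was closest to Fabp1, which binds fatty acids in enterocytes (0.44), Guca2a, which encodes the gut peptide guanylin (0.47), and Lgals2, a galectin (0.62). Reg4 was closest to Myo15b, Bpifb1 and Prap1 (0.40, 0.49 and 0.56), whose own differences of 1.74, 1.78 and 2.67 did not pass over all genes (adjusted p = 0.216, 0.352 and 0.107, limma). This distance weighs the size of the difference, so genes of a like difference between the genotypes come out as close.

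Of the wider defence genes of epithelia, 7 of 19 tested rose in null bladders and 0 fell, against 0.448% and 0.0628% of all genes. The 7 were Lypd8, Dmbt1, Zg16, Lgals2, Lgals4, Pglyrp1 and Fut2. Lypd8 had a null level of 12.02 ± 0.55 and a heterozygous one of 4.42 ± 0.41 (SD, n = 3 each; limma adjusted p = 9.3e-05). Pglyrp1, a peptidoglycan recognition protein that like Reg3g binds the bacterial cell wall, had 10.29 ± 0.06 against 6.66 ± 0.50 (SD, n = 3 each; limma adjusted p = 0.0011). Zg16, a goblet cell lectin that binds Gram-positive bacteria, rose by 4.10 (adjusted p = 4.1e-04, limma), but another Zg16 probe set, the brighter one without null 2 or without null 3, then gave 1.87 and 1.78 (adjusted p = 0.545 and 0.577). The list was written with earlier results of these arrays known, several of these genes among them, so its count is not independent evidence. Of the 7, Lypd8, Zg16, Dmbt1 and Lgals2 were below the dim level on all heterozygous arrays and were tested only because their null signals were high. The median difference was 0.78 over the 19 tested genes (-0.03 over all genes tested) and 0.45 over all 30 with a probe set (-0.04 over all genes).

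Another 5 genes of that list, picked after their values were seen, did not pass. S100a9, a subunit of the antimicrobial protein calprotectin, had a difference of 1.84 (adjusted p = 0.0613) and its partner S100a8 one of 1.61 (adjusted p = 0.125). Lcn2, which withholds iron from bacteria, had 0.78, and the serum amyloid genes Saa1 and Saa3 had 0.74 and 0.77 (adjusted p = 0.818, 0.59 and 0.677, limma). The count of 7 for the list ranged from 5 to 9 over the 14 alternative fits, and whether these 5 genes differed less than the Reg genes was not tested.

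The signals that drive Reg genes in gut were then read. Of the cytokines that act through STAT3 or induce Reg genes, 11 of 13 had a probe set and 3 were above the dim filter, and 0 of the 3 passed (limma, 1 at an unadjusted p under 0.05). That gene was Lif, with a difference of 1.104 (adjusted p = 0.337), and the others, Clcf1 and Ctf1, had 0.48 and -0.20 (adjusted p = 0.926 and 0.914). Il22 had no probe set named here. Il17a, Il11 and Il23a were below the dim level on all 6 arrays.

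Of 14 tested receptors and STAT3 pathway genes, 0 passed (limma, 2 higher and 1 lower at an unadjusted p under 0.05), and the median difference was 0.23. The 1 that was lower at that level was Il22ra1, the epithelial subunit of the interleukin-22 receptor. Its signals were 26.6, 53.3 and 53.9 in the null group and 155.1, 179.8 and 126.9 on the heterozygous arrays. The groups were apart with null lower, at 5.88 ± 0.41 against 7.40 ± 0.23 (SD, n = 3 each), and the difference of -1.51 missed the threshold over all genes (adjusted p = 0.0916, limma). It passed in 2 of 14 alternative fits, with arrays centred on the median (adjusted p = 0.0428) and with array weights (adjusted p = 0.0431). Osmr and Il10rb had differences of 0.56 and 0.63 (adjusted p = 0.558 and 0.602).

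Among 10 tested genes of bacterial sensing 0 passed (limma, 1 higher at an unadjusted p under 0.05), with Tirap at 0.71, Ly96 at 0.47 and Lbp at -0.49 (adjusted p = 0.576, 0.877 and 0.871). Extl3, a proposed receptor of Reg proteins, had signals of 3213, 3186 and 3132 on null arrays and of 3493, 3370 and 3928 on the heterozygous arrays. The groups were apart, but the difference was only -0.18 (adjusted p = 0.893, limma). Extl3 was named for its role, outside the rule for named genes. Of 6 tested genes of the list that holds Extl3, its relatives, Egfr and Cd44, 0 passed (limma, 1 higher and 1 lower at an unadjusted p under 0.05), with Extl2 at -0.68, Ext2 at 0.80 and Ext1 at -0.42 (adjusted p = 0.501, 0.558 and 0.815).

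Transcription factors of the gut epithelium included 2 that rose among 11 tested, Hnf4a and Cdx2, against 0.448% of all genes. The median difference over the 11 was 0.57, and 4 were higher and 0 lower at an unadjusted p under 0.05 (limma). This list too was written with earlier results of these arrays known, so its count is not independent evidence. Cdx2, the homeobox factor that sets intestinal identity, had a null level of 8.73 ± 0.52 against 4.67 ± 0.67 (SD, n = 3 each; limma adjusted p = 0.0033). Cdx2 was below the dim level on all heterozygous arrays, so it was tested only through its null signals. Hnf4a, a nuclear receptor of gut and liver, had 11.70 ± 0.26 against 7.14 ± 0.63 (SD, n = 3 each; limma adjusted p = 8.7e-04). Hoxb13, a hindgut and urogenital homeobox factor, had a difference of 1.35 (adjusted p = 0.26). With the probe sets of a gene averaged 0 of this list passed. Hnf4a then had a difference of 1.19 (adjusted p = 0.0885), and Cdx2 fell below the dim filter.

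**Figure D3:**
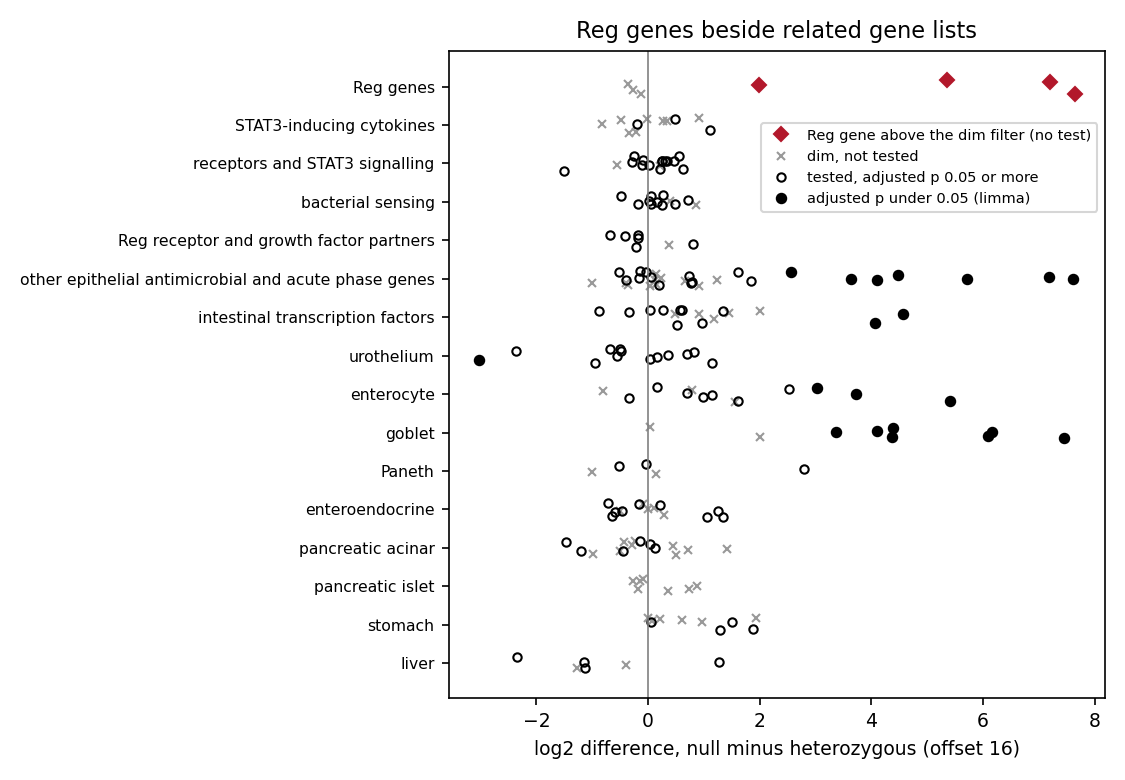
Log2 difference between null and heterozygous means for the 7 Reg genes (top row) and for each gene of the related lists; red diamonds are Reg genes above the dim filter, filled circles are genes with an adjusted p under 0.05 (limma), open circles are other tested genes and crosses are genes below the dim filter, with vertical scatter only for legibility. The goblet cell row has 7 of 7 tested genes called higher and 2 below the dim filter. The pancreatic acinar, enteroendocrine and Paneth rows have 0 called higher of 6, 9 and 3 tested, and the pancreatic islet row has 0 genes tested.

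Which cell type the Reg signal came from was not measured, and in bulk samples more cells of a type and more RNA per cell cannot be told apart. Marker lists of the cells known to make Reg proteins were read beside the family. These lists too were written with earlier results of these arrays known, so their counts are not independent evidence. Of 9 goblet cell markers with a probe set 7 were tested and all 7 rose, where 0.448% of all genes were called higher. Muc2 and Zg16 were below the dim level on all heterozygous arrays, so they were tested only through their null signals. Spink4, Fcgbp and Tff3 had heterozygous means of 5.29, 5.54 and 5.78, also under the filter's cut of 5.80 on the log2 scale. They too were kept through their null signals, so the filter favoured genes that rose. The median difference was 4.37 over the 9 markers, and their summed signal was 26243, 35690 and 40223 on null arrays 1 to 3 and 1216 to 1589 on heterozygous arrays. Muc2, the secreted gut mucin, had signals of 303.3 to 851.2 on null and 2.52 to 39.3 on heterozygous arrays (log2 difference 4.37, adjusted p = 0.0085, limma). Clca1 and Agr2, secretory proteins of goblet cells, rose by 3.37 and 4.38 (adjusted p = 3.1e-04 and 2.2e-04, limma).

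Of 10 tested enterocyte markers 3 rose, where 0.448% of all genes were called higher. These were Vil1, Cdh17 and Fabp1 (3.72, 3.02 and 5.41, adjusted p = 0.0020, 0.0019 and 0.0024, limma). At an unadjusted p under 0.05 (limma) 6 were higher and 0 lower, and the median difference was 1.39. Anpep and Krt20 had 0.15 and -0.35. The summed enterocyte signal was 2366, 5036 and 7728 in the null group and 1222 to 1760 on the heterozygous arrays. Cdh17 and Fabp1 too were below the dim level on all heterozygous arrays. In both sums null 1 was the lowest null array and null 3 the highest, as for Reg1, Reg3g and the first Reg3b probe set. The same order held for 6 of the 15 lists, bacterial sensing, enteroendocrine and islet genes included, and null 1 was lowest in 10, so this order is not particular to goblet cell and enterocyte markers. The part of such cells in the Reg signal was not tested.

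Markers of pancreas, the other organ known for Reg proteins, gave no calls. Of 6 tested acinar markers 0 passed (limma, 1 lower at an unadjusted p under 0.05), the median difference was -0.30, and the summed signal over 15 markers was 480.0 to 585.1 on null and 526.3 to 877.8 on heterozygous arrays. The acinar factors Ptf1a and Rbpjl, and Ctrb1 and Gp2, were below the dim level on all 6 arrays. Among the faint acinar markers left untested, Clps and Rbpjl had the groups apart with null higher (differences of 1.42 and 0.51), as did 5.71% of all genes. Cel had them apart with null lower (-0.99). The 3 markers with the smallest p, Pnliprp2, Pnliprp1 and Cela3b, had differences of -1.46, -1.20 and -0.45 (adjusted p = 0.532, 0.734 and 0.886). Of 7 islet markers with a probe set 0 were above the dim filter, and their summed signal was 152.0 to 274.4 on null and 132.0 to 210.6 on heterozygous arrays.

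Of 9 tested enteroendocrine markers 0 passed (limma, 2 higher at an unadjusted p under 0.05), and the median difference was -0.16. The 3 with the smallest p, the peptide genes Pyy, Sct and Gip, had 1.26, 1.05 and 1.34 (adjusted p = 0.28, 0.376 and 0.701, limma). Cck had 0.22, while Chgb, Scg5, Tac1, Chga and Sst had -0.72, -0.64, -0.60, -0.47 and -0.16. The summed enteroendocrine signal was 1159 to 2817 on null and 1822 to 2727 on heterozygous arrays. Neurog3, Neurod1, Insm1 and Gcg were below the dim level on all 6 arrays. Of 3 tested Paneth cell markers 0 passed (limma, 1 higher at an unadjusted p under 0.05). That marker was the matrix protease gene Mmp7, with a difference of 2.80 (adjusted p = 0.0561), which passed in 6 of 14 alternative fits. The summed Paneth signal was 2052 to 2431 on null and 1494 to 10799 on heterozygous arrays. The highest value came from Lyz1, a lysozyme gene, at 10271 on heterozygous 6 against 1196 and 1082 on the other heterozygous arrays. The sums of heterozygous 4 and 5 (1535 and 1494) were below all null sums. The name of the Lyz1 probe set ends in x_at, a suffix for probes that may also match other transcripts. Lyz2, another lysozyme gene, was also highest on heterozygous 6, at 1697 against 405 and 311. The sum thus cannot be taken as Paneth cell signal alone.

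Of 4 tested stomach markers 0 passed (limma, 3 higher at an unadjusted p under 0.05). Tff1, Cldn18 and Tff2 had differences of 1.87, 1.504 and 1.29 (adjusted p = 0.316, 0.327 and 0.332, limma). The heterozygous means of Tff1 and Cldn18 (5.47 and 5.28) were under the filter's cut of 5.80, so they were tested only through their null signals. The summed stomach signal was 589.7 to 671.1 on null and 179.0 to 270.4 on heterozygous arrays. Pgc, Atp4a and Atp4b, products of the gastric glands, were below the dim level on all 6 arrays. Gkn2, left untested by the dim filter, had signals of 66.9, 94.8 and 62.3 on null arrays. On the heterozygous arrays they were 0.60, 23.6 and 3.59. Of 4 tested liver markers 0 passed (limma, 1 lower at an unadjusted p under 0.05), with a summed signal of 981.3 to 5534 on null and 954.3 to 5702 on heterozygous arrays. Their leading genes Alb, Apoa2 and Ttr had differences of -2.35, -1.13 and 1.27 (adjusted p = 0.624, 0.746 and 0.791). Among the 13 urothelial markers, all tested, Upk2, a plaque protein of the bladder surface, fell by 3.03 (adjusted p = 0.0022, limma) and 0 were called higher. At an unadjusted p under 0.05 (limma) 2 were higher and 2 lower, and the median difference was -0.49. Upk1a had a difference of -2.36 and Krt19 one of 1.15 (adjusted p = 0.199 and 0.28, limma).

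The size of the Reg differences depended on the offset, because the heterozygous signals were so small. For Reg1 the log2 difference was 9.78 with an offset of 1 and 5.35 with an offset of 64, and for Reg3b 8.33 and 6.53. For Reg3g the values were 5.92 and 4.34, and for Reg4 2.59 and 1.25. The second Reg3b probe set had 11.05 and 7.37, above Reg1 at all 3 offsets. The first Reg3b probe set was above Reg1 with an offset of 16 or 64 and below it with 1.

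**Figure D4:**
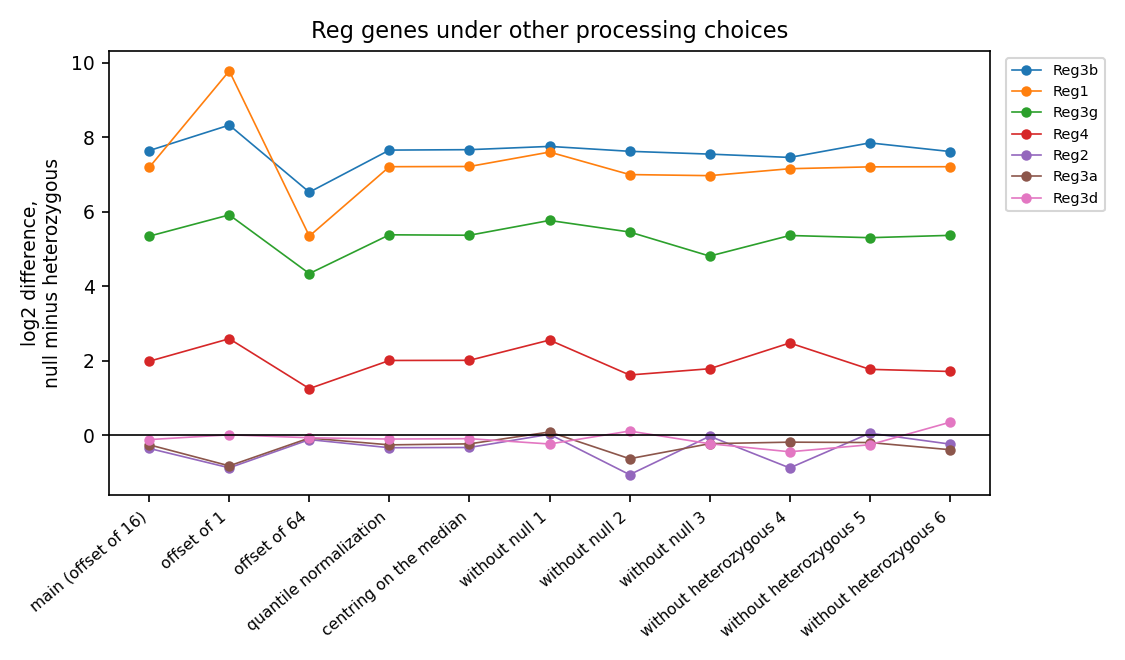
Log2 difference between null and heterozygous means of the 7 Reg genes under the main setting and 10 other choices on the horizontal axis; each line joins the values of 1 gene. Reg1, Reg3b, Reg3g and Reg4 stay above 1 in each, from 1.25 for Reg4 with an offset of 64 to 9.78 for Reg1 with an offset of 1, while Reg2, Reg3a and Reg3d lie on both sides of 0.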

How the data were processed

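The deposited intensity values, 1 per probe set and array, are linear. The submitters' processing notes name Affymetrix Expression Console 1.1 along with PLIER 2.0; what each did is not given there. Of 45101 probe sets, 34945 had exactly 1 gene symbol in the platform annotation, 932 several and 9160 none, and 64 were controls. For each gene the probe set brightest on average in log2(value + 16) stood for it, and the 30% of genes with the lowest mean were left out, which left 12735. The cut was a mean of 5.80 over the 6 arrays. A gene with a heterozygous mean under it was tested only if its null signals were higher, as for Lif, Mmp7, Pyy, Sct and Gip. Null and heterozygous arrays (3 each, grouped by sample title) were compared in R 4.3.3 using limma 3.58.1 (lmFit, eBayes, two-sided, Benjamini-Hochberg over all genes tested, threshold 0.05). The fit was tested on simulated data. The share of all genes at an unadjusted limma p under 0.05 was not counted, so nothing is read from the list counts at that level. The number of arrays limits the precision, and the files give no detection calls.

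The members and all gene lists were chosen with earlier results of these data known. Named genes were all Reg genes, up to 3 tested members per list with the smallest p, and the 3 closest profiles per Reg gene above the dim filter, and those named outside this rule were chosen after their values were seen. Zg16, Lyz1, Ang4, Itln1, Pla2g2a and Retnlb of the defence list stand on a cell type list too, and Spdef on those of gut factors and goblet cells. Promoter pairs were aligned globally (Biopython). Alternatives were the offset, the dim filter, normalization, probe set averaging, array weights, a variance trend and leaving out each array.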

Additional observations from a re-analysis of the deposited data

How the results depend on the processing

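Over all genes tested, 57 were called higher and 8 lower. With an offset of 1 the counts were 36 and 5. Leaving out 1 array gave 37 to 57 higher and 5 to 9 lower, the lowest without null 3 (37 higher) and without null 2 or heterozygous 5 (5 lower). Reg3b with both probe sets averaged differed by 8.37, and Reg3a by -0.83 with an offset of 1. Genes that never passed and changed sign were Clcf1, Ly96, Lyz1, Itln1 and Cela3b. Leaving out 1 array moved them from -0.31 to 1.06, from -0.066 to 0.84, from -1.09 to 0.52, from -0.23 to 0.14 and from -0.79 to 0.12, and array weights gave 0.17 for Lyz1 and 0.14 for Itln1. The cause was not tested. Upk1a passed without null 1 (-2.94, adjusted p = 0.0265). No paired analysis was possible because the titles number the null arrays 1 to 3 and the heterozygous arrays 4 to 6. With 3 arrays per group and heterozygous signals of Reg1, Reg3b and Reg3g below the dim level, fold sizes are limited by the offset.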
